A study of Mus musculus with 12 samples.

Results

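The question here was whether loss of Lag3 changed gene expression in regulatory T cells (Tregs) differently in 2 tissues of mice with autoimmune diabetes. For each gene the difference between Lag3-deficient and wild-type (Wt) Tregs in the pancreatic islets was set against the same difference in non-draining lymph nodes (NDL). The value is (Lag3-deficient islet minus Wt islet) minus (Lag3-deficient NDL minus Wt NDL) on the log2(CPM + 1) scale, and it is called the interaction below. CPM is the count scaled to a common library total. A negative interaction means that the Lag3-deficient level, relative to Wt, was lower in islets than in NDL. All 12 libraries of the study entered, 3 in each of the 4 groups, and were assigned by the group name in the column headers alone. Of 23361 gene symbols, 21708 were above 0 in some library and 10868 were tested, which required 10 or more rescaled counts in 3 or more of the libraries.

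The groups were Lag3-deficient islet, Wt islet, Lag3-deficient NDL and Wt NDL Tregs, with libraries called 1a, 2 and 1b in each, since the headers number the columns 1, 2 and again 1. All 4 groups share the disease model, and the labels name no further treatment. The sources used here do not give the allele behind the deficiency, the promoter of any Cre, the strain, the age or the number of animals pooled per library. Whether the 3 libraries in each group stem from different animals is not stated, so p-values reflect only how far these samples scatter, and that scatter may be technical.

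Tregs are CD4 T cells that depend on the transcription factor Foxp3 and hold other lymphocytes in check. Lag3 is a receptor related to CD4 that binds MHC class II and dampens signals from the T cell receptor, and activated T cells, Tregs among them, carry more of it than resting ones. Islets are the site of attack in autoimmune diabetes, where Tregs meet their antigen, while a lymph node that does not drain the pancreas holds mostly resting cells.

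The deposited totals ran from 15232498 to 15370098 rescaled counts, which hides the read depth. Spearman correlations within a group were lowest in the Lag3-deficient islets (0.661 to 0.733), against 0.718 to 0.882 in the other 3 groups. Foxp3 was at 483, 224 and 341 CPM in libraries 1a, 2 and 1b of the Lag3-deficient islets and between 311 and 654 CPM in the other 9. Cd4 and Cd3e, which mark helper T cells and T cells, were above 0 in all 12. Library 2 of the Lag3-deficient islets stood apart. It had 927 of the tested genes at 0, against 399 to 789 in the others, and 2 scaling methods placed it differently (factor 1.18 by trimmed means, TMM, and 0.786 by median ratios, RLE). Rn45s, a ribosomal RNA gene, took 1.26 to 1.68% of the signal in the 4 libraries called 1b and 0.149 to 0.571% elsewhere.

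No gene had an interaction that passed the test. At a Benjamini-Hochberg adjusted limma p under 0.05, 0 of 10868 genes were called (0%), and the smallest adjusted p was 1. An unadjusted p under 0.05 was reached by 437 genes (4.02%), of which 330 had a negative interaction (3.04%) and 107 a positive one (0.985%). With no gene past the adjusted threshold, these 437 serve to show where the largest values lay. The median interaction over all tested genes was -0.24, with an interquartile range of -1.22 to 0.56, and 42.3% of genes were above 0. The split between directions moved with the scaling. With RLE size factors 276 genes were negative and 176 positive, and the median of all genes shifted by 0.19 to -0.05.

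Reading the 2 tissues apart shows how the 437 were made up. The islet difference was the larger of the 2 in 269 genes and the NDL difference in 168. In 311 of the 330 with a negative interaction, the Lag3-deficient mean was below Wt in islets and above Wt in NDL, and 103 of the 107 positive ones had the reverse. Genes were chosen here for a large gap between 2 differences, which favours differences of opposite sign, so these counts are a description. Over all tested genes the signs were opposite in 5476 of 10868.

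**Figure D1:**
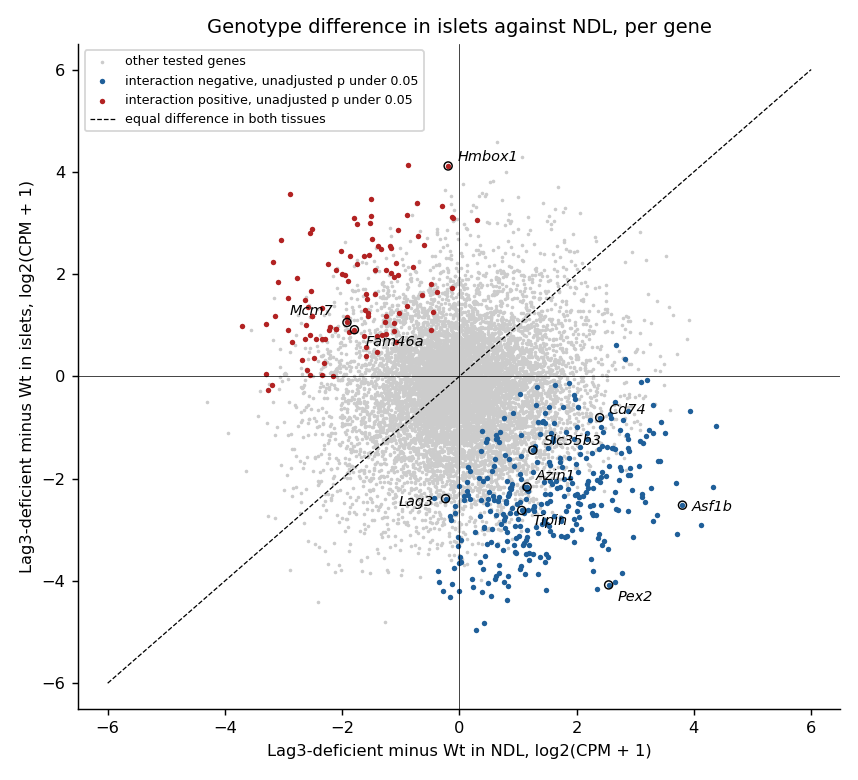
Each point is 1 of 10868 tested genes, placed by the Lag3-deficient minus Wt difference in NDL (x axis) and in islets (y axis), both in log2(CPM + 1). The dashed line marks an equal difference in both tissues, and the 437 genes at an unadjusted p under 0.05 lie away from it, 330 below (blue) and 107 above (red), with 10 named genes circled.

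The targeted gene itself had a larger genotype difference in one tissue than in the other, though its interaction did not pass after adjustment. The adjusted limma p of its islet difference was 0.85. Lag3 (chromosome 6, 124904359 to 124912434 on GRCm38, a protein-coding gene) had rescaled counts of 40, 48 and 120 in Wt islets and of 1, 0 and 0 in Lag3-deficient islets. In NDL it was listed at 2, 5 and 6 in Wt and at 1, 0 and 3 in Lag3-deficient cells. The genotypes did not overlap in islets, and in NDL the highest Lag3-deficient library exceeded the lowest Wt one. The interaction was -2.15 ± 0.88 (95% interval -3.99 to -0.32, n = 3 libraries per group), made of -2.39 in islets and -0.24 in NDL. Wt NDL libraries held at most 6 rescaled counts of Lag3, which leaves little room for a genotype difference there. The value depended on the constant added before the logarithm and was -4.08 with 0.1 CPM and -0.87 with 5 CPM.

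The 10 negative genes with the smallest p at an average log2 level of 4 or more had different roles. They were picked by p, and some genes not named had larger differences. For each of the genes named from here on, the adjusted limma p of the interaction was 1 unless another is given, so their values describe the libraries and pass no test. Pex2, a subunit of the membrane complex that imports proteins into peroxisomes (chromosome 3, 5560188 to 5578596), was at 1.51, 1.54 and 1.53 CPM in Lag3-deficient islets and at 81.6, 16 and 54.2 CPM in Wt islets. In NDL it was at 78.8, 55 and 180.3 CPM in Lag3-deficient and at 28.4, 33.2 and 3.04 CPM in Wt cells. The 3 Lag3-deficient islet libraries lay below all 9 others, and in NDL the genotypes were separated the other way round. Its interaction was -6.62 ± 1.57 (95% interval -9.89 to -3.35), from -4.08 in islets and 2.55 in NDL.

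Azin1, which protects ornithine decarboxylase, the entry enzyme of polyamine synthesis, from its antizyme (chromosome 15, 38487430 to 38519294), was at 84, 17.1 and 76.5 CPM in Lag3-deficient and 158, 271 and 246 CPM in Wt islets. The NDL values were tight, with 104, 108 and 106 CPM in Lag3-deficient and 53.6, 52 and 37.2 CPM in Wt cells. Genotypes were apart in both tissues, in opposite directions, with an interaction of -3.32 ± 0.87 (95% interval -5.14 to -1.49). Slc35b3, a Golgi transporter of the sulfate donor used to sulfate proteins and sugars (chromosome 13, 38932132 to 38960879), had the same form. It was at 43, 40.4 and 75.4 CPM in Lag3-deficient against 148, 134 and 138 CPM in Wt islets, and at 131, 233 and 351 against 123, 86.7 and 72.7 CPM in NDL. All Lag3-deficient libraries were below Wt in islets and above Wt in NDL, and the interaction was -2.69 ± 0.75 (95% interval -4.26 to -1.13).

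Tipin, Orc3 and Asf1b, which act in dividing cells, were also among the 10 smallest p-values with a negative sign. Tipin, part of the complex that steadies stalled forks (chromosome 9, 64281491 to 64305422), was at 4.22, 45 and 58.4 CPM in Lag3-deficient and 137, 139.7 and 169.6 CPM in Wt islets. In NDL it was at 83.8, 87 and 139 CPM in Lag3-deficient and 49, 68.2 and 32.2 CPM in Wt cells. Its libraries were apart in both tissues, lower in Lag3-deficient islets and higher in Lag3-deficient NDL, with an interaction of -3.68 ± 1.10. Orc3, a subunit of the origin recognition complex (chromosome 4, 34566781 to 34614963), was at 14.6, 6.44 and 110.2 CPM in Lag3-deficient and 83.7, 191 and 139.5 CPM in Wt islets. It was at 73, 119 and 189.6 CPM in Lag3-deficient NDL and 58.8, 30.7 and 48.9 CPM in Wt NDL. Library 1b of the Lag3-deficient islets lay within the Wt range for Orc3, so only the NDL genotypes were apart, and the interaction was -3.88 ± 1.16. Asf1b, a histone chaperone of dividing cells (chromosome 8, 83955694 to 83970195), was at 1.78, 0.363 and 3.98 CPM in Wt NDL against 23.3, 31.4 and 64.7 CPM in Lag3-deficient NDL. In islets it was at 46.4, 6.17 and 2.84 CPM in Lag3-deficient and 85.3, 92.9 and 29.3 CPM in Wt cells, which overlapped. Its interaction of -6.32 ± 1.69 was made more of the NDL difference (3.81) than of the islet one (-2.52).

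The other 4 of these 10 were enzymes and a membrane protein. Jkamp, a protein of the endoplasmic reticulum membrane, was at 10.4, 0.606 and 7.08 CPM in Lag3-deficient islets, below all 9 other libraries, which ran from 13.2 to 85.0 CPM, and its interaction was -4.63 ± 1.35. Ppcs, an enzyme of coenzyme A synthesis, was at 0.829, 0.441 and 16.3 CPM there, again below the 9 others (27.6 to 138 CPM), with an interaction of -4.51 ± 1.39. Ssu72, a phosphatase of RNA polymerase II, was at 34.8, 86 and 47.7 CPM in Lag3-deficient and 194, 189.7 and 191 CPM in Wt islets, with an interaction of -2.41 ± 0.75. The 3 genes were low in one group, the Lag3-deficient islets, and in NDL their genotypes overlapped. Nfs1, which frees sulfur for iron-sulfur clusters, was different in form. Its interaction of -5.78 ± 1.65 came with NDL values of 61.4, 0.303 and 1.81 CPM in Wt, so that 2 of 3 Wt NDL libraries were near 0 and the third was within the range of the Lag3-deficient ones.

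Positive interactions were mostly smaller, and Lag3-deficient NDL was the low group in several of them. Fam46a, a member of the non-canonical poly(A) polymerase family, was at 279, 291 and 152 CPM in Lag3-deficient and 147, 128 and 96.9 CPM in Wt islets. In NDL it was at 52.7, 37.1 and 37 CPM in Lag3-deficient and 137, 183 and 126 CPM in Wt cells. The genotypes were apart in both tissues, higher without Lag3 in islets and lower in NDL, and the interaction was 2.70 ± 0.70 (95% interval 1.23 to 4.17). Mcm7, a subunit of the replicative helicase (chromosome 5, 138164583 to 138172111), was at 132, 116 and 122 CPM in Lag3-deficient and 82.8, 88.8 and 27.5 CPM in Wt islets. In NDL it was at 31.9, 57.5 and 14.3 CPM in Lag3-deficient and 87.8, 164 and 108 CPM in Wt cells. Its genotypes were also apart in both tissues, and the interaction was 2.97 ± 0.93 (95% interval 1.03 to 4.91), opposite in sign to those of Tipin, Orc3 and Asf1b.

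Wwp2, a ubiquitin ligase (chromosome 8, 107436334 to 107559290), was at 34.6, 26.1 and 17.4 CPM in Lag3-deficient NDL, the lowest of the 4 groups, with 226, 124 and 104 CPM in Lag3-deficient islets. Its interaction was 2.75 ± 0.89, from 0.87 in islets and -1.88 in NDL. Pde4d, a phosphodiesterase that breaks down cyclic AMP, was at 74.1, 82.5 and 59.5 CPM in Lag3-deficient and 28.6, 24.7 and 36.7 CPM in Wt islets. In NDL Pde4d was at 24.6, 13.8 and 31.9 CPM in Lag3-deficient and 33.2, 97.7 and 92.1 CPM in Wt cells, apart from each other in both tissues, with an interaction of 2.79 ± 1.02. Itgav, the integrin alpha V chain, was at 109.7, 104 and 156 CPM in Lag3-deficient islets, above Wt islets (20.8, 65.5 and 83.2 CPM), and its NDL genotypes overlapped. The interaction of Itgav was 2.91 ± 1.01. Tbcb, a folding cofactor of tubulin, and Rap2c, a small GTPase, were higher in all 3 Lag3-deficient than in all 3 Wt islet libraries, with islet differences of 1.66 and 1.59. Their NDL differences were -0.38 and -0.63, with overlapping libraries, and the interactions were 2.03 ± 0.75 and 2.22 ± 0.80. The other 3 were Tbc1d8 (4.52 ± 1.58), which has a domain found in regulators of Rab GTPases, Dmxl1 (4.01 ± 1.44), a WD repeat protein, and Yars2 (4.32 ± 1.58), the mitochondrial tyrosyl-tRNA synthetase. Each of these 3 had 1 library far below the other two of its group: Wt islet 1a for Tbc1d8, and Lag3-deficient NDL 1b for Dmxl1 and Yars2.

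**Figure D2:**
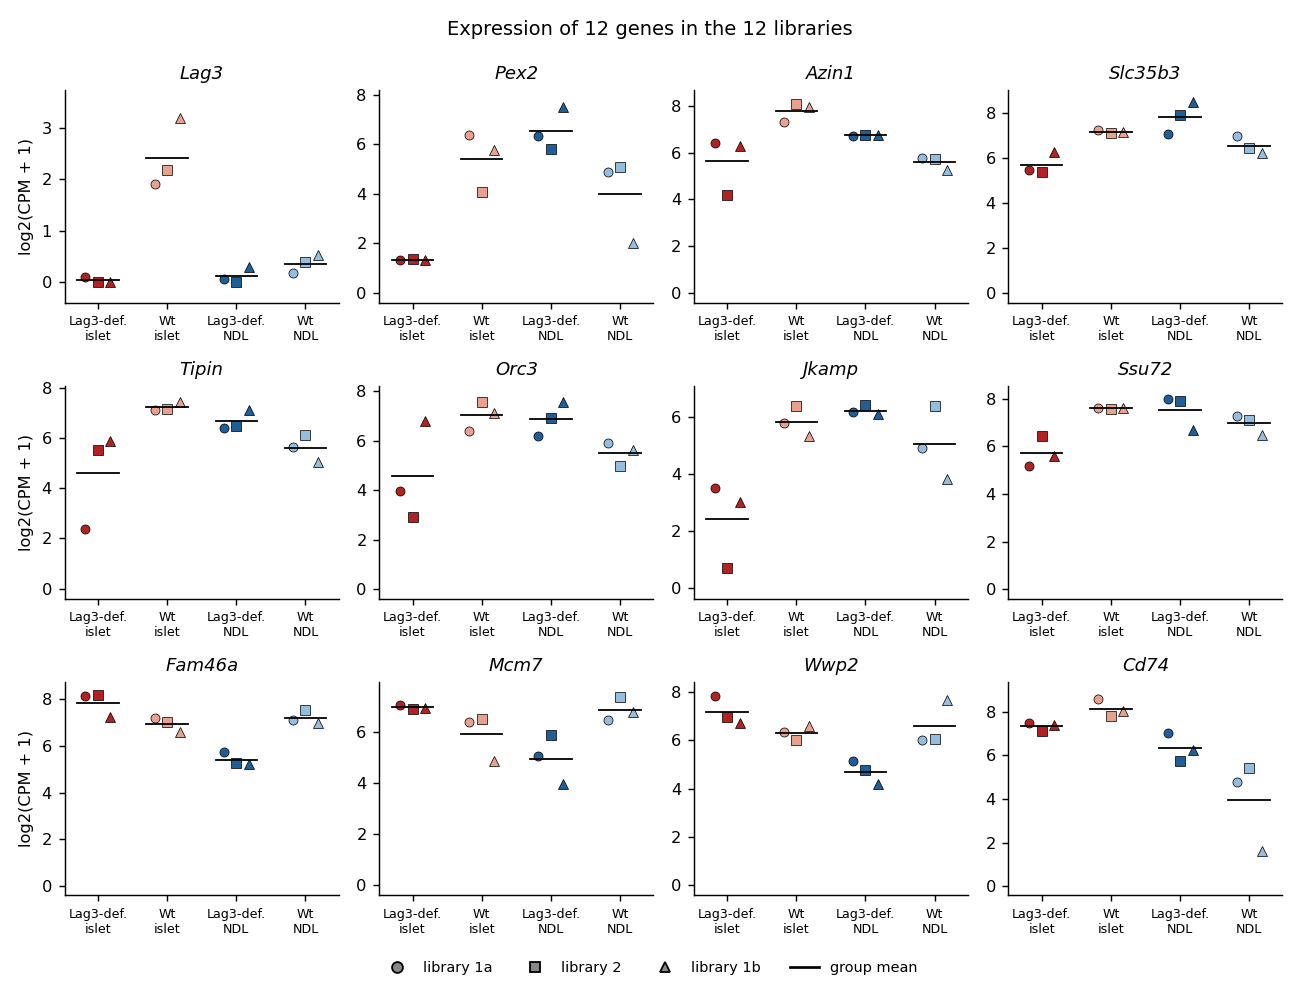
Expression of 12 genes in each library, as log2(CPM + 1) on a scale of its own per gene; symbols stand for libraries 1a, 2 and 1b and bars for the mean of 3 libraries. Pex2, Jkamp and Ssu72 were low in the Lag3-deficient islets, while Azin1, Slc35b3, Tipin and Fam46a had genotypes apart in both tissues in opposite directions.

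Counting libraries in place of fitting them gave few genes with the pattern of a reversal. In 41 of 10868 genes (0.377%) the genotypes did not overlap in either tissue and lay in opposite orders, and in 42 (0.386%) they lay in the same order in both. Of the 41, 21 were lower without Lag3 in islets and higher in NDL, Pex2, Azin1, Slc35b3, Tipin and Cd74 among them, and 20 had the reverse order, as Fam46a, Mcm7, Wwp2 and Pde4d did. Genotypes that did not overlap in islets alone numbered 930 and in NDL alone 735. In islets overall they numbered 1013 (9.32%), of which 655 were lower and 358 higher without Lag3, and in NDL 818 (7.53%), of which 395 were lower and 423 higher.

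A second count asked which single group stood apart from the other 9 libraries. The Lag3-deficient islets were below all others in 110 genes (1.01%) and above all others in 37 (0.34%). For Wt islets the counts ran the other way, with 40 genes below (0.368%) and 86 above (0.791%). With RLE size factors the Lag3-deficient islets were below in 86 and above in 65. With no filter on low values they were below in 110 and above in 158 of 21708 genes, so the lean depended on the filter. Besides Pex2, Jkamp, Ppcs and Ssu72, the genes below included Strbp, an RNA-binding protein, at 23.7, 3.69 and 2.50 CPM against 35.9 to 85.3 CPM in the 9 others (interaction -3.75 ± 1.22). The interferon-induced nucleic acid sensor Zbp1 was below as well, at 8.29, 1.10 and 2.84 CPM against 15.2 to 83.1 CPM, with an interaction of -3.78 ± 1.45. The 5 genes named from those above all others had interactions between 1.39 and 3.69. Gbp3, an interferon-induced guanylate-binding protein, was at 241, 196 and 294 CPM against 37.8 to 194 CPM, with an interaction of 1.72 ± 0.82. Grn, which encodes progranulin, was at 122, 247 and 64.5 CPM against 0 to 54.1 CPM (3.69 ± 1.67). Lrba, which keeps Ctla4 protein from being degraded in lysosomes, was at 96.2, 214 and 87.3 CPM against 2.02 to 86.3 CPM (2.45 ± 1.20), a narrow gap. The ubiquitin ligase Trip12 (1.39 ± 0.71) and Ncln, a protein of the endoplasmic reticulum (2.16 ± 1.18), made up the 5.

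Genes that define Tregs had interactions on both sides of 0. In the Treg identity list 12 of 23 tested genes had a positive interaction, the median was 0.04 and 0 had an unadjusted p under 0.05. Foxp3 was at 483, 224 and 341 CPM in Lag3-deficient and 337, 472 and 392 CPM in Wt islets, and at 585, 604 and 311 against 624, 654 and 438 CPM in NDL. The genotypes overlapped in both tissues, and the interaction was -0.02 ± 0.57, with a 95% interval of -1.2 to 1.16 that still holds a change of 2-fold either way. Il2ra, the high-affinity chain of the interleukin-2 receptor, had 0.04 ± 0.62 (-1.26 to 1.35). Ctla4, an inhibitory receptor through which Tregs act, was at 3371, 1825 and 2439 CPM in Lag3-deficient and 2126, 2742 and 2024 CPM in Wt islets. In NDL Ctla4 was at 271, 408 and 242 CPM in Lag3-deficient and 404, 469.9 and 544 CPM in Wt cells, with overlap in both tissues, and its interaction was 0.76 ± 0.48 (-0.24 to 1.76). Foxp3, Il2ra, Ctla4 and Mki67 were added to the named genes by hand. The 2 smallest p-values of the list were those of Satb1, a chromatin organizer (1.01 ± 0.59), and Ikzf4, which encodes Eos (2.54 ± 1.49). Ikzf4 was at 8.14, 68.2 and 69.4 CPM in Lag3-deficient and 6.83, 8.73 and 5.08 CPM in Wt islets, so 1 library decided that the genotypes overlapped.

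Effector Treg genes leaned negative with no member past the unadjusted threshold. Of 29 tested, 10 had a positive interaction (34.5% against 42.3% of all genes), the median was -0.76 and 0 had an unadjusted p under 0.05. The median was -0.08 without Lag3-deficient islet library 2. Ccr8, a chemokine receptor of tissue Tregs, was at 107, 0.330 and 36.7 CPM in Lag3-deficient and 21.6, 50.8 and 37 CPM in Wt islets and at 28.6, 22.3 and 0 against 0.553, 0 and 0 CPM in NDL (-3.94 ± 2.31). S100a4, a calcium-binding protein of activated T cells, had 0.99 ± 0.84. Of the 15 inhibitory receptor genes, 7 were positive (46.7% against 42.3% of all genes) and the median was -0.85, which turned to 0.09 without Wt NDL library 1a. Lag3 was the 1 of the 15 with an unadjusted p under 0.05. Cd101 followed at 2.81 ± 1.48, on levels of 2.86, 1.38 and 28.4 CPM in Lag3-deficient islets.

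Genes of the Lag3 ligands and of MHC class II were negative in 9 of 11, with a median of -0.82. These proteins are made chiefly by antigen-presenting cells, and activated mouse T cells make little of their own. Cd74, the invariant chain that guides MHC class II to its compartment, was at 180.4, 137 and 168 CPM in Lag3-deficient and 389, 222 and 258 CPM in Wt islets. In NDL Cd74 was at 128, 52.5 and 76.2 CPM in Lag3-deficient and 26.4, 42.2 and 2.10 CPM in Wt cells. The genotypes were apart in both tissues in opposite orders, and the interaction was -3.20 ± 1.08 (95% interval -5.45 to -0.95). The class II genes H2-Aa, H2-Ab1 and H2-Eb1 had -0.79, -0.81 and -1.40, and H2-Oa, part of the class II loading machinery, had 3.49 ± 2.01. Markers of B cells, which make much class II, are given beside these genes. Of 15 such markers 14 were above 0 in either islet group, 13 in Lag3-deficient NDL and 11 in Wt NDL. Their summed level was 104 to 745 CPM in Lag3-deficient and 345 to 846 CPM in Wt islets, and 78.4 to 105 CPM in Lag3-deficient and 31.5 to 113 CPM in Wt NDL, and the part of B cells in the values of Cd74 was not tested. Among defining B cell genes, Pax5 was listed at 0 in all 12 libraries.

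Replication genes had a negative median under each of the 22 alternatives, as did all genes except where no filter on low values was used. Of 47 tested, 36 had a negative interaction and 11 a positive one (23.4% positive against 42.3% of all genes), with a median of -0.75, which is -0.51 from the median of all genes. The unadjusted threshold was passed by 3 negative members, Orc3, Orc1 and the licensing inhibitor Gmnn, and 2 positive ones, Mcm7 and Orc6, together 10.6% of the list against 4.02% of all genes, and 0 passed after adjustment. The mean log2 level over the 47 genes was 5.25, 4.66 and 5.78 in Lag3-deficient and 5.84, 6.22 and 5.998 in Wt islets. It was 4.78, 4.69 and 4.15 in Lag3-deficient and 4.68, 4.31 and 4.45 in Wt NDL. The islet genotypes did not overlap on this mean, though by a narrow gap (5.78 in Lag3-deficient 1b against 5.84 in Wt 1a), and the NDL ones did. Lag3-deficient islet library 2 was the lowest of the islet libraries, and the list's median without it was -0.59, when that of all genes was -0.03.

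The members did not share 1 direction. Of the 6 genes of the MCM2 to MCM7 helicase ring, Mcm3, Mcm4, Mcm5 and Mcm6 had -1.63, -1.18, -1.99 and -1.48, while Mcm2 had 0.58 and Mcm7 2.97. Within the origin recognition complex Orc1 and Orc3 had -3.29 and -3.88 and Orc2 and Orc6 had 1.52 and 3.00. The value of Orc6 came from NDL, with a genotype difference of -3.26 there, and that of Orc1 from islets, with -3.03. Pcna, the sliding clamp of the polymerases, had -0.56.

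Mitosis genes had a like median, -0.77, with 22 of 60 positive (36.7% against 42.3% of all genes). An unadjusted p under 0.05 was reached by 1 of the 60, which is 1.67% against 4.02% of all genes. That was Cenpw, a centromere protein, at -4.06 ± 1.90. Ndc80, part of the kinetochore, followed at -2.94 ± 1.41, with 12.2, 0.666 and 17.9 CPM in Wt NDL against 23.4, 42 and 144 CPM in Lag3-deficient NDL. Mki67, the standard marker of cycling cells, was at 100, 158 and 419.7 CPM in Lag3-deficient and 241, 657 and 528 CPM in Wt islets and at 33.9, 109.8 and 127 against 68, 33.3 and 156 CPM in NDL. Its genotypes overlapped in both tissues, and the interaction was -1.35 ± 0.95 (95% interval -3.34 to 0.64). The median of the mitosis list ran from -1.12 to -0.14 over the alternatives. In these bulk samples fewer cycling cells and less of this RNA per cell cannot be told apart.

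Lists of T cell signalling had medians between -0.35 and 0.10. T cell receptor and proximal signalling genes had 10 of 24 positive and a median of -0.18, early response genes of the receptor 13 of 31 and -0.35, and interleukin-2 receptor and STAT5 genes 14 of 24 and 0.10. Leaving out 1 library turned the sign of each. Without Lag3-deficient islet library 2 the first was 0.02 and the second 0.11, and without Lag3-deficient NDL library 1a the third was -0.08. Cd28, the costimulatory receptor, was at 226, 367 and 164 CPM in Lag3-deficient and 289, 318 and 304 CPM in Wt islets, which overlapped. In NDL Cd28 was at 312, 409.6 and 499 CPM in Lag3-deficient and 267, 206 and 136 CPM in Wt cells, which did not, and the interaction was -1.37 ± 0.60. Nck1, an adaptor of the receptor, had -2.70 ± 1.43, Dusp1, a phosphatase of MAP kinases, -1.14 ± 0.77, and Socs3, a feedback inhibitor of cytokine signalling, 2.26 ± 1.51. Tnfaip3, an inhibitor of NF-kB signalling, had 2.13 ± 1.58, with 54.5, 48.3 and 0 CPM in Lag3-deficient NDL. Naive and recirculating T cell genes had 9 of 17 positive and a median of 0.19. Within that list Dapl1 was the exception, at 0.0754, 0 and 0.0694 CPM in Lag3-deficient and 3.66, 11.2 and 8.61 CPM in Wt islets (-3.74 ± 1.69).

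Cytokine, chemokine and interferon genes had list medians between -0.41 and -0.17, on both sides of the -0.24 of all genes. Effector cytokine genes had 3 of 9 positive (median -0.41), with Ltb, lymphotoxin beta, at -1.02 ± 0.86 and Cxcr5, the follicle-homing receptor, at -1.59 ± 1.43. Chemokine and integrin genes had 9 of 25 positive (median -0.18). Ccl5, a chemokine of activated T cells, was at 91.5, 52.8 and 65.4 CPM in Lag3-deficient and 202, 224 and 139.6 CPM in Wt islets, and at 7.91, 10.1 and 6.51 against 5.10, 1.94 and 6.38 CPM in NDL. Its genotypes were apart in both tissues in opposite orders, and the interaction was -2.26 ± 1.19. Interferon response genes had 20 of 44 positive (median -0.17, and 0.06 with RLE factors), with Zbp1 negative and Gbp3 and Rsad2 positive at an unadjusted p under 0.05. Rsad2, which encodes viperin, rested on Wt NDL libraries of 13.2, 0 and 15 CPM.

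Metabolic genes had medians near 0. Of 76 respiratory chain genes 32 were positive and the median was -0.10 (0.13 with RLE factors). An unadjusted p under 0.05 was reached by 2 of the 76, Ndufa10 and Ndufv2, which is 2.63% against 4.02% of all genes. Ndufa10 was at 37.8, 32.1 and 115 CPM in Lag3-deficient and 171, 268 and 127 CPM in Wt islets (-1.91 ± 0.85), and Ndufv2 had -2.13 ± 0.98. The mean log2 level of the list was 7.73, 7.13 and 7.91 in Lag3-deficient and 7.78, 7.87 and 7.88 in Wt islets, and in NDL it lay between 7.39 and 7.79. Glycolysis had 6 of 22 positive (27.3% against 42.3% of all genes). Its median was -0.20 (0.02 with RLE factors), with an interquartile range of -1.16 to 0.02. Pfkm, a phosphofructokinase, was at -3.87 ± 1.75 and Tpi1, triosephosphate isomerase, at -2.19 ± 1.10. Apoptosis regulators had 11 of 24 positive and a median of -0.02, with the death promoters Bad at -4.81 ± 2.02 and Bid at 4.46 ± 1.95 on opposite sides.

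Peroxisome and polyamine genes were listed because Pex2 and Azin1 had stood out in these data, so their lists are no independent evidence. Peroxisome biogenesis genes had 4 of 15 positive and a median of -0.85. Pex2 and Pex13, a docking protein of the import machinery, were among those with an unadjusted p under 0.05. The mean log2 level of the 15 genes was 2.16, 1.33 and 2.58 in Lag3-deficient and 3.56, 3.49 and 2.88 in Wt islets, which did not overlap, and 3.71, 3.52 and 3.35 against 4.26, 3.75 and 2.48 in NDL, which did. Pex13 differed from Pex2 in where the gap arose. Its islet difference was -0.11 and its NDL difference 3.10, so the interaction of -3.21 ± 1.39 came from NDL. Polyamine genes had 7 of 14 positive and a median of -0.07. Azin1 was negative at an unadjusted p under 0.05, and Oaz2, an antizyme (3.45), and Amd2, a copy of the S-adenosylmethionine decarboxylase gene, were positive. Amd2 is nearly identical to Amd1, so its reads may be split between copies, and it rested on 2 libraries, with 0.0754, 122 and 45 CPM in Lag3-deficient islets (5.0 ± 1.84).

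**Figure D3:**
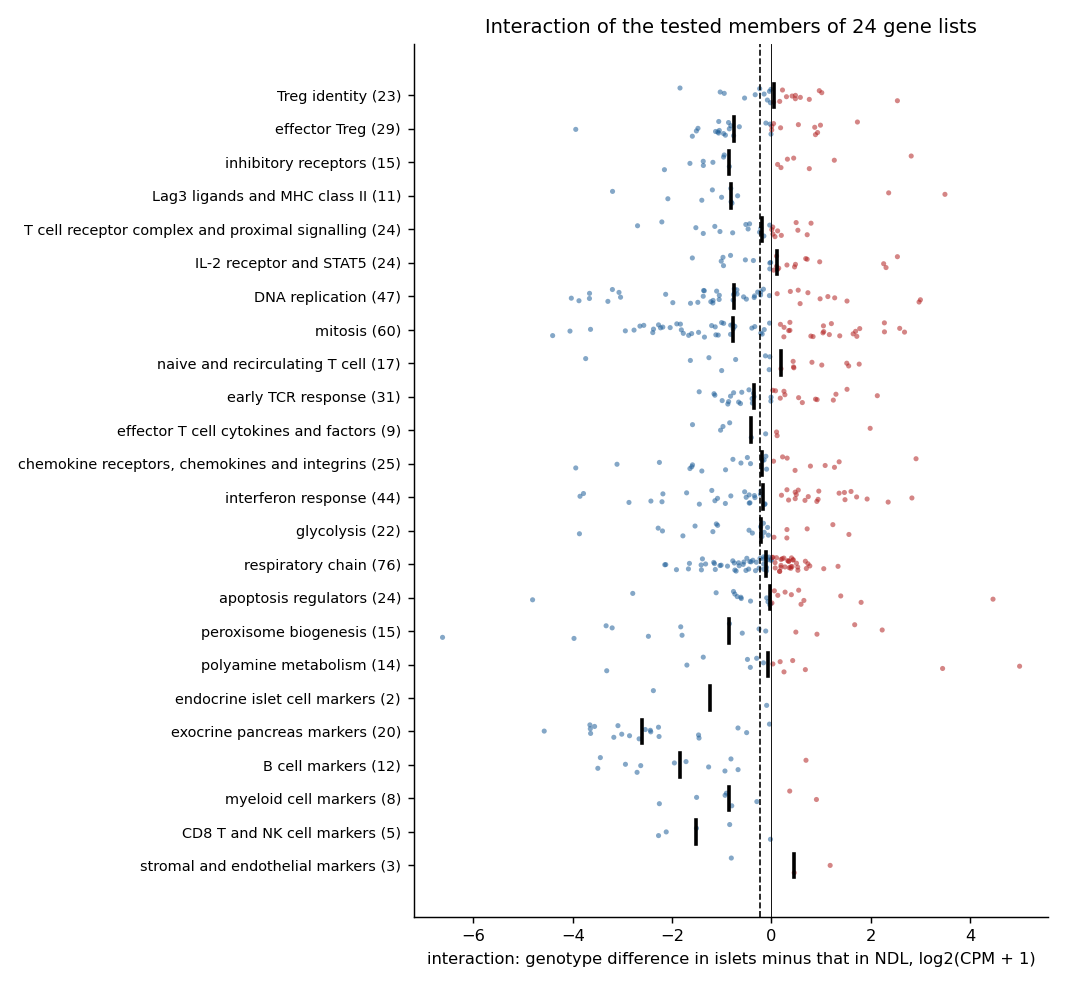
Interaction of every tested member of 24 gene lists, in log2(CPM + 1), with the number tested in brackets; points are genes (red above 0, blue below), thick bars the list's median and the dashed line the median of all genes, -0.24. DNA replication and mitosis lie left of the line at -0.75 and -0.77, Treg identity right of it at 0.04, and exocrine markers farthest left at -2.60.

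The interaction can be read the other way, as the islet minus NDL difference in each genotype. For DNA replication genes the median of that difference was 1.62 in Wt and 0.64 in Lag3-deficient Tregs, and 41 and 34 of the 47 were above 0. For mitosis genes it was 2.17 and 1.54, with 56 and 53 of 60 above 0, and for effector Treg genes 1.67 and 1.16. Naive and recirculating genes were lower in islets in both, by medians of -1.08 in Wt and -0.75 in Lag3-deficient cells. Over all genes the medians were 0.10 and -0.15. In these 4 lists the Lag3-deficient value was the closer to 0. Other lists had the reverse, with peroxisome genes at -0.09 in Wt and -1.75 in Lag3-deficient cells, T cell receptor genes at -0.11 and -0.47, Treg identity genes at 0.06 and 0.16 and stromal and endothelial markers at 0.70 and 1.32. Genes that passed an adjusted p under 0.05 numbered 20 between the tissues in Wt (0.184%) and 13 in Lag3-deficient cells (0.12%). These 2 counts are not a test of a difference between genotypes, which is the interaction itself, with 0 genes.

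**Figure D4:**
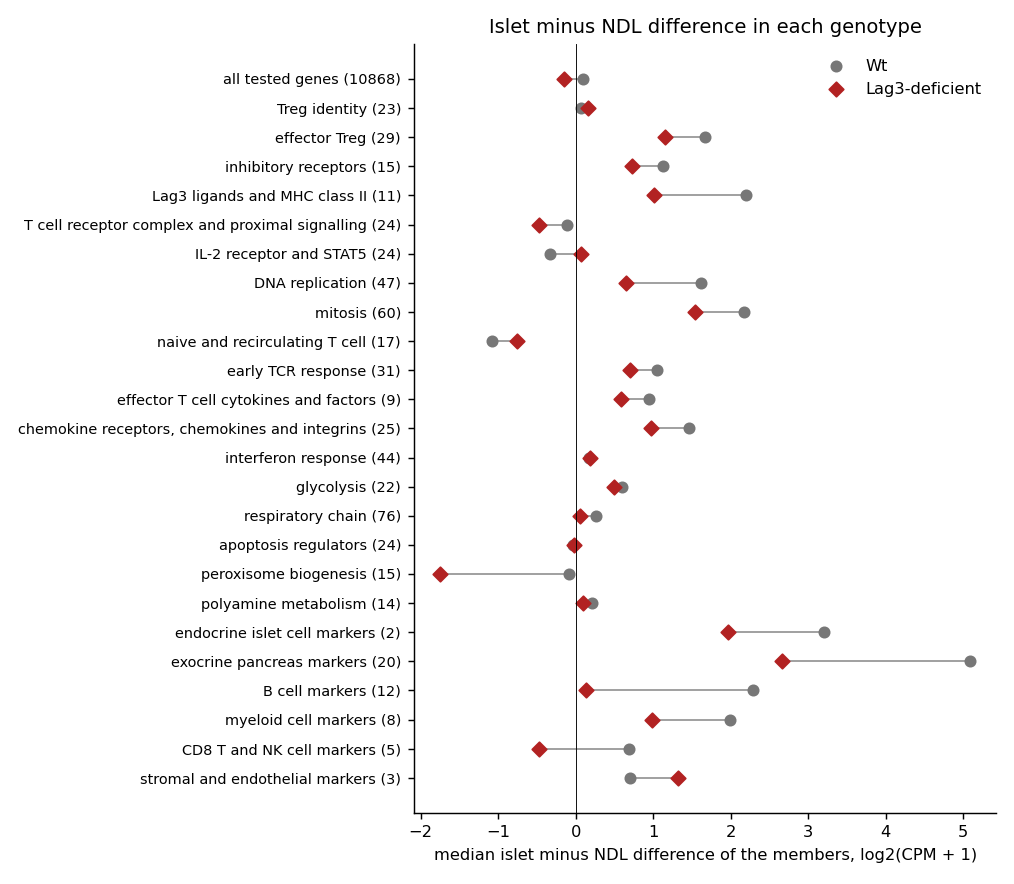
Median islet minus NDL difference of the tested members of 24 gene lists, and of all 10868 tested genes, in log2(CPM + 1); grey circles are Wt and red diamonds Lag3-deficient cells, and a line joins the pair. For DNA replication the pair is 1.62 and 0.64, for mitosis 2.17 and 1.54, and for exocrine markers 5.09 and 2.67.

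Markers of cells other than Tregs that passed the count filter had mostly negative interactions. Exocrine pancreas markers, digestive enzymes of acinar cells, had 0 of 20 positive, against 42.3% of all genes, and a median of -2.60. An unadjusted p under 0.05 was reached by 4 of the 20 (20% against 4.02%). In Lag3-deficient islets 25 of 28 listed markers were above 0 and in Wt islets 27. Their summed level was 35.8 to 700 CPM in Lag3-deficient and 250 to 4178 CPM in Wt islets, which overlapped, and at most 4.98 CPM in every NDL library. Amy2b, a pancreatic amylase, was at 3.02, 0 and 0.624 CPM in Lag3-deficient and 55.3, 21.8 and 11.2 CPM in Wt islets and was listed at 0 in 5 of the 6 NDL libraries (-3.65 ± 1.27). Ctrl, a chymotrypsin-like protease, had -4.58 ± 1.78. With NDL near 0, the interaction of these genes restates their islet difference. Of the 28 listed, 20 were tested, and these reached the count filter mainly through the islet libraries. The filter thus favoured markers high in an islet group, so the counts for this list are a description. Several digestive enzyme genes have close copies, and reads may be split between them. Without Lag3-deficient islet library 2, the list's median was -1.48.

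Of the endocrine islet markers 2 of 17 could be tested. Gcg, the glucagon gene, was at 0.0754, 1.54 and 21.6 CPM in Lag3-deficient and 148, 6.01 and 5.97 CPM in Wt islets (-2.38 ± 1.76), and Ins2, an insulin gene, at 2.86, 0 and 16.6 and 21.8, 1.47 and 0.475 CPM (-0.10 ± 1.46). Ins2 was listed at 0 in all 6 NDL libraries, and its islet genotypes overlapped. B cell markers had 1 of 12 positive and a median of -1.84. Blnk, a B cell adaptor, was at 1.21, 0 and 0 CPM in Lag3-deficient and 10.7, 43.9 and 0 CPM in Wt islets (-2.63 ± 1.38), and the complement receptor Cr2 had -2.94 ± 1.61. Blnk was listed at 0 in all 6 NDL libraries, so it reached the count filter through islet libraries alone. The filter could thus favour markers high in an islet group here too, and the counts for the marker lists of this paragraph are a description. Myeloid markers had 2 of 8 positive (median -0.85, and -0.22 without Lag3-deficient islet library 1b). The 2 smallest p-values were those of Cst3, cystatin C (-0.91 ± 0.57), which was at 158 CPM or more in all 12 libraries, and Fcer1g (-1.51 ± 1.17). CD8 T and NK cell markers had 0 of 5 positive (median -1.51). Nkg7, a granule protein, was at 439.5, 50.7 and 369.9 CPM in Lag3-deficient and 345, 398 and 208 CPM in Wt islets and at 85.6, 41.5 and 104 against 25.8, 29.1 and 19.1 CPM in NDL (-2.12 ± 0.99). Its NDL genotypes were apart and its islet ones overlapped. Cd8b1 had -2.27 ± 1.10, and Cd8a reached at most 16.4 CPM in any library. Stromal and endothelial markers had 2 of 3 positive, with Sparc at 1.18 ± 1.60 and Krt18 at -0.81 ± 1.42. The part of these cells in the interactions of other genes was not tested.

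How much each library weighed was measured by leaving out each in turn. Of the 437 genes, 100 (0.92% of those tested) kept an unadjusted p under 0.05 in all 12 of these fits, 73 negative (0.672%) and 27 positive (0.248%). All 10 negative and all 10 positive genes named first above, from Pex2 to Yars2, were among the 100, as were Strbp, Cd74, Amd2 and Amy2b. Lag3 kept it in 11 of 12, Zbp1 in 11, Pex13 in 8, Cd28 and Nkg7 in 5 and Gbp3 in 4. Genes with a library listed at 0 were 26.5% of those tested, 38.9% of the 437 and 47% of the 100. Hmbox1, a homeobox gene under the level limit for naming and chosen after its values were seen, had the smallest p of the positive genes kept in all 12, with an interaction of 4.31 ± 1.09 and 3 libraries at 0.

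Some libraries moved the counts more than others. Without Lag3-deficient islet library 1b, 563 genes were negative and 120 positive, and the smallest adjusted p was 0.0654. Without Lag3-deficient islet library 2, 257 were negative and 173 positive, and the median of all genes went from -0.24 to -0.03. Called genes numbered 0 in each of the 12 fits. Negative genes outnumbered positive ones in all 12. They were fewest without Lag3-deficient NDL library 2, at 238 against 140. Their share was lowest without Lag3-deficient islet library 2, at 59.8%.

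**Figure D5:**
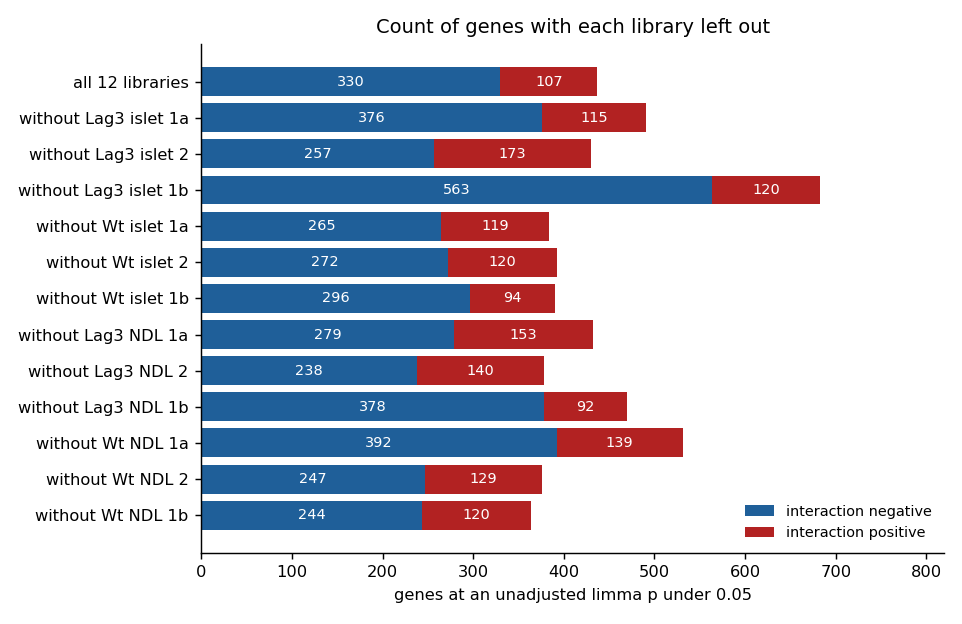
Number of genes at an unadjusted limma p under 0.05 for the interaction, with all 12 libraries and with each left out, split into negative (blue) and positive (red); bars start at 0. The total is largest without Lag3-deficient islet library 1b, with 563 negative genes, and the positive share is largest without Lag3-deficient islet library 2, with 173.

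The precision set what could be seen. The median SE of the interaction was 1.5 log2 units. For genes with an average log2 level of 8 and over, 551 in number, a typical 95% interval reached 1.23 log2 units to either side, and 0.907% of them had an unadjusted p under 0.05. For 1952 genes from 6 to 8 the reach was 1.80 units, for 3109 genes from 4 to 6 it was 3.11, and for 2833 genes from 2 to 4 it was 4.24. An interaction of 2-fold was thus not detectable in most genes with these libraries. The share of a gene's variance that followed the interaction had a mean of 8.11%, against 13.2% for tissue, 7.86% for genotype and 8.85% for each residual degree of freedom.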

How the data were processed

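The 12 libraries were grouped by genotype and tissue from the column headers. The submitters' processing notes name TopHat2, DESeq2 and the build mm10, without versions or roles. The values the authors deposited per gene are a signal, rescaled counts kept as whole numbers, with nearly equal library totals (0.903% apart), about 15.3 of them to 1 CPM. Read depth is therefore unknown, and counting error and any strand setting cannot be judged. Because they are not raw counts, the count model first planned was replaced by limma 3.58.1 in R 4.3.3 (statmod 1.5.0), with a mean-variance trend on log2(CPM + 1). Differences on that scale come out too small for weakly expressed genes. TMM scaling cut 30% of the log ratios and 5% of the levels from each end. Every gene that reached 10 rescaled counts in 3 libraries entered 1 model of the 4 groups without covariates (8 residual degrees of freedom), and p-values were adjusted over all 10868 genes by Benjamini and Hochberg. The second deposited table was not used. Scripts were tested on simulated data. The alternatives were 22 in number, among them each library left out.

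The comparison, the gene lists and the naming rule were chosen with earlier results of these data known. Named were Lag3, the 10 smallest unadjusted interaction p-values per direction where the average log2 level reached 4, and the 2 smallest of each list. Added to these were the 5 smallest p-values per direction of genes with the Lag3-deficient islets apart from all 9 others and the 5 smallest of genes with opposite orders in both tissues, at that level. Predicted, immunoglobulin, T cell receptor segment and ribosomal protein genes were left out of the naming. Symbols of 93.2% of tested genes matched RefSeq on GRCm38, which gave the coordinates. Intervals are 95% limma intervals, and values follow the order 1a, 2 and 1b.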

Additional observations from a re-analysis of the deposited data

How the results depend on the processing

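Called genes numbered 0 at an adjusted limma p under 0.05 in each of the 22 alternatives, with 343 to 705 genes at an unadjusted p under 0.05. Negative genes, 330 as reported, ranged from 238 to 563 with a library left out and were 573 without the 4 libraries called 1b. Positive genes, 107 as reported, ranged from 92 to 173 with a library left out, and were 176 with RLE factors and 353 with no filter on low values, where they outnumbered the 316 negative ones among 21708 genes. Without the 1b libraries the median of all genes was -0.46. The cause of these shifts was not tested, except that dropping the filter adds genes.

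Of 1553 values for the 71 named genes, 1535 kept their direction and side of the threshold and 18 turned sign. Tnfaip3 turned from 2.13 to -0.52 without the 1b libraries, Ins2 from -0.10 to 0.14 with array weights and Foxp3 from -0.02 to 0.21 with RLE factors. With a library left out the values ran over -1.15 to 1.10 for Ins2, -0.33 to 0.23 for Foxp3, -0.30 to 0.44 for Il2ra, -0.055 (without Lag3-deficient islet library 1b) to 2.55 for Sparc and -1.80 to 0.49 for Krt18. List medians below 0 in all 22 were those of effector Treg, MHC class II, DNA replication, mitosis, peroxisome, exocrine, B cell, myeloid, and CD8 T and NK genes. The median of all genes was itself below 0 in every alternative except that with no filter, where it was 0.03. The other 15 list medians took both signs with a library left out, and the inhibitory receptor median ran from -1.04 to 0.12 over all alternatives. No paired analysis was possible because each group's columns repeat the number 1 and cannot be matched to the titles, which run from 1 to 3.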
